A study of Mus musculus with 7 samples.

Results

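The 10 genes described here carry out de novo lipogenesis and fatty acid desaturation in the duodenum of Ppara I-KO and Ppara lox/lox mice. They were taken by symbol from a deposited table of 14795 genes and are Srebf1, Acly, Acaca, Acacb, Fasn, Elovl6, Scd1, Scd2, Fads1 and Fads2. All 10 were listed, and all 10 passed the filter on low values that 13399 genes passed. No measured value entered the rule that took them, but earlier results of these data were known when they were chosen.

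Duodenal RNA of 3 Ppara lox/lox and 4 Ppara I-KO mice was sequenced. Both groups carried the floxed Ppara alleles (Ppar-alpha loxP/loxP in the labels) on a C57BL/6 strain, and the I-KO group also carried Villin-Cre, which is driven by the villin 1 promoter and is active in the intestinal epithelium. Other cells of the gut wall therefore kept intact Ppara in the I-KO group. According to the study's methods the animals were males on HFD, the controls were lox/lox littermates, and the colony was housed in a conventional zone. The diet lasted 8 weeks. The age of these animals at sacrifice is not given in the sources used here, but HFD cohorts of this colony began the diet at 8 weeks of age. By the labels, all mice went without food for 6 h from midday and then ate for 6 h until sacrifice at midnight, which makes every library one of refed duodenum. The study's methods give a 5 h fast before sacrifice unless specified otherwise, so the feeding state rests on the labels.

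De novo lipogenesis turns surplus carbohydrate into fatty acids. ATP citrate lyase (Acly) makes cytosolic acetyl-CoA, acetyl-CoA carboxylases (Acaca, Acacb) turn it into malonyl-CoA, and fatty acid synthase (Fasn) builds palmitate from these units. Elovl6 lengthens palmitate, the stearoyl-CoA desaturases Scd1 and Scd2 make monounsaturated from saturated fatty acids, and Fads2 and Fads1 desaturate the essential fatty acids of the diet on the way to arachidonic acid and eicosapentaenoic acid. Srebf1 encodes SREBP1, a membrane-bound transcription factor that is released by proteolysis and induces most of these genes after feeding. In the small intestine most fatty acids packed into chylomicrons come from the diet, and polyunsaturated fatty acids are known to lower the expression of several of these genes. PPARα is a nuclear receptor bound by fatty acids and is best known for inducing fatty acid oxidation.

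Deposited values are normalised read counts scaled to the library size (CPM), and between 20744162 and 25866656 reads per library fell on the listed genes, as read from the steps between low values. The epithelial marker Vil1 was at 2735 to 2884 CPM in lox/lox and 2947 to 3383 CPM in I-KO, and Fabp1, the fatty acid binding protein of proximal enterocytes and a PPARα target, at 3380 to 4228 and 2109 to 3215 CPM. Neither marker overlapped between genotypes and neither passed the adjusted threshold by limma (adjusted p = 0.954 and 0.822). The sum of 6 endothelial and stromal markers also did not overlap, with 196 to 280 CPM in lox/lox and 282 to 312 CPM in I-KO, and the part of these cells in the differences between genotypes was not tested. The sum of 5 duodenal markers was 343 to 589 CPM and that of 4 ileal markers 272 to 357 CPM. Hepatocyte Alb was at 0.08 to 0.62 CPM and adipocyte Adipoq at 0.21 to 2.10 CPM. In 2 libraries single features stood apart: the summed CPM of 14 listed pancreatic acinar genes was 437 in I-KO replicate 1 against 27.2 to 99.0 in the other 6, and the ribosomal precursor row Rn45s was at 33514 CPM in I-KO replicate 3 against 1789 to 4082 in the other 6. Values below are given in order of replicate number. Ppara itself was at 53.4, 49.3 and 63.2 CPM in lox/lox and at 33.1, 40.6, 47.5 and 69.9 CPM in I-KO. The groups overlapped, and I-KO replicate 4 was above every lox/lox library. The value counts reads over the whole gene, whereas Cre removes the floxed part only, so it does not check the deletion.

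Per length of annotated exons the 10 genes fell into 4 bands. Elovl6 was highest with a mean of 29.2 CPM per kilobase over the 7 libraries (24.2 to 34.7), followed by Scd2 with 23.4 (18.0 to 28.8), Srebf1 with 17.6 (15.6 to 21.0) and Acly with 15.2 (13.7 to 16.5). Neighbours in this first band overlapped in their ranges. Below it, without overlap between Acly and Fads1, came Fads1 with 11.9 (11.2 to 12.9), Fads2 with 9.69 (7.55 to 12.3), Fasn with 9.01 (6.97 to 10.5) and Scd1 with 7.48 CPM per kilobase (3.45 to 11.5), again with overlapping neighbours. Acaca, the cytosolic carboxylase, stood apart at 1.59 CPM per kilobase (1.32 to 1.86), and Acacb, the carboxylase anchored at mitochondria whose malonyl-CoA restrains CPT1, was lowest at 0.443 (0.335 to 0.592). Acacb was counted with 61 to 145 reads per library and each of the other 9 with at least 342. Of the paired enzymes, Scd2 thus exceeded Scd1 in every library. Isoforms that use part of the exons would change these levels.

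**Figure D1:**
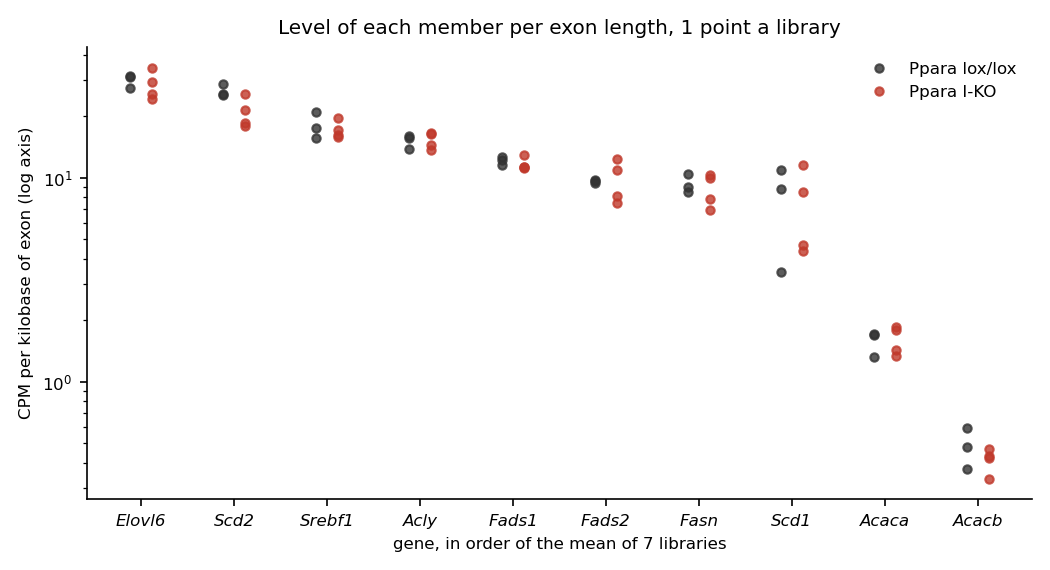
Level of each of the 10 genes in CPM per kilobase of exon (log axis) in the 3 Ppara lox/lox (black) and 4 Ppara I-KO (red) libraries, 1 point a library, in order of the mean of all 7. Elovl6 (24.2 to 34.7) is at the top, Acaca (1.32 to 1.86) and Acacb (0.335 to 0.592) stand below the rest, and Scd1 spreads most.

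No member passed the threshold between genotypes. By limma, 0 of 10 genes had an adjusted p under 0.05 in a fit that called 0.0299% of all tested genes, and adjusted p-values were 0.954 to 0.999. At an unadjusted p under 0.05 there was 1 of 10, Scd2, against 4.74% of all genes. The groups overlapped in all 10, and failed to overlap in 6.19% of all genes (either direction). Fitted log2 fold changes (I-KO minus lox/lox, of CPM + 1) were below 0 for 8 and above 0 for 2, against 49.4% of all genes below 0, with a median of -0.06 beside 0.0017 for all genes and a range of -0.36 to 0.02. On the scale of CPM + 1, the 95% intervals of 8 members lay within a change of 1.5 times in either direction. Those of Scd1 and Scd2 reached past it. The added 1 narrows the interval most for Acacb, which was at 3.23 to 5.70 CPM. The sum over all members was 782 ± 43.3 CPM in the lox/lox group (SD, n = 3) and 728 ± 80.0 CPM in the I-KO group (SD, n = 4), and the ranges of 739 to 826 and 652 to 804 overlapped.

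**Figure D2:**
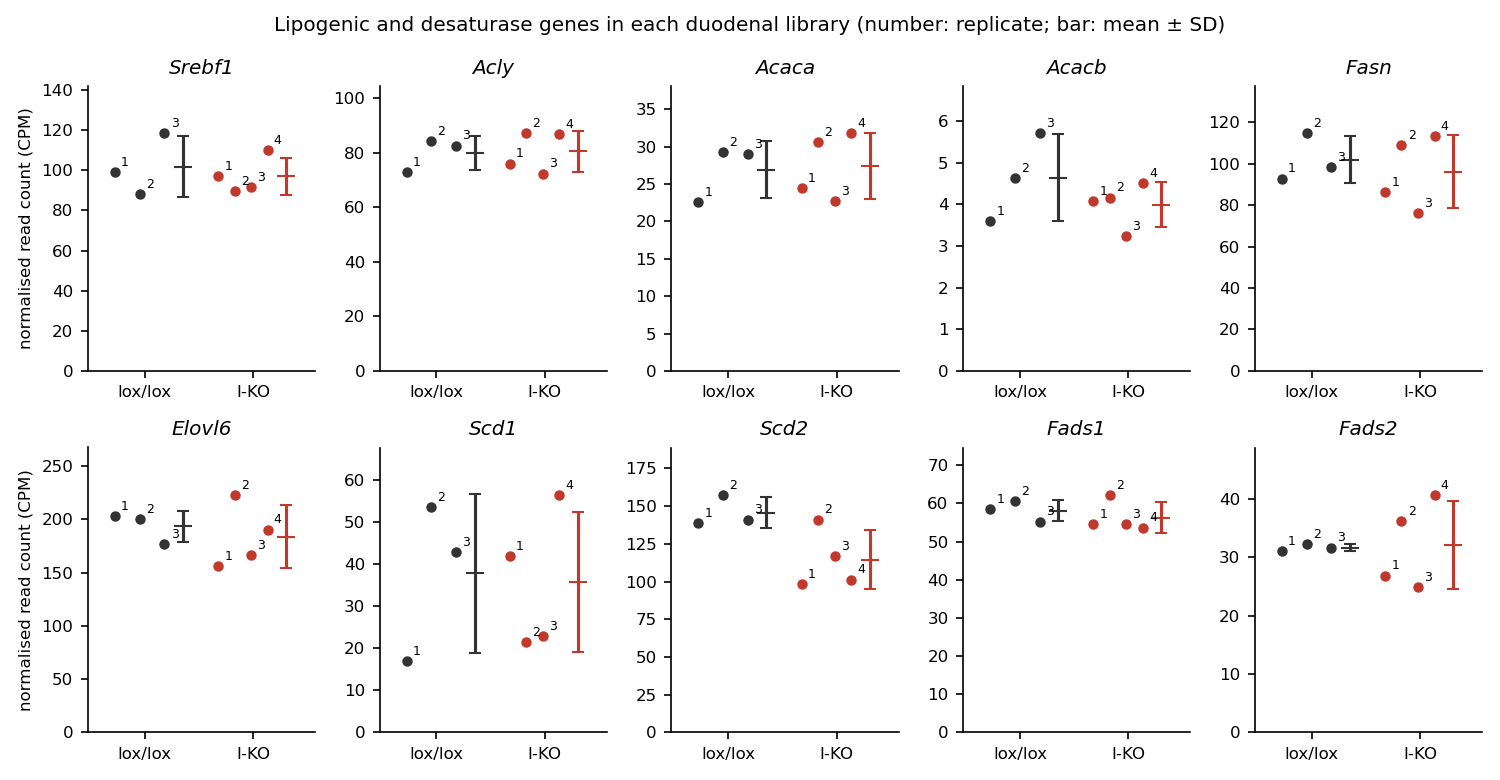
CPM of each member in each library, with the replicate number beside each point and the mean ± SD beside each group (lox/lox black, n = 3, and I-KO red, n = 4). The 2 groups overlap in every panel. For Scd2, I-KO replicates 1, 3 and 4 (98.3, 117 and 101 CPM) lie below all lox/lox libraries.

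Srebf1, the transcription factor of the pathway, was at 99.0, 88.1 and 118 CPM in the 3 lox/lox libraries. The I-KO libraries had 97.0, 89.5, 91.5 and 110 CPM, all within the range of lox/lox. The means were 102 ± 15.3 and 97.1 ± 9.30 CPM (SD), which gave a log2 fold change of -0.06 with a standard error of 0.12 (adjusted p = 0.976 by limma). The 95% interval put the I-KO level between 79.4% and 116% of lox/lox on the scale of CPM + 1.

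The promoters of Srebf1 and of Acly and Fasn, both known SREBP1 targets, are shown because the results turn on whether these genes moved with one another. Each line gives the 250 bases before a transcript start in RefSeq (GRCm38.p6, minus strand of the genome, read 5′ to 3′ along the gene), with the CCAAT box in capitals on either strand. The windows are chr11:60222582-60222831 for the most upstream of 3 Srebf1 starts, chr11:100528001-100528250 for Acly and chr11:120824548-120824797 for Fasn, and none overlaps a gene annotated in GENCODE M21.
Srebf1: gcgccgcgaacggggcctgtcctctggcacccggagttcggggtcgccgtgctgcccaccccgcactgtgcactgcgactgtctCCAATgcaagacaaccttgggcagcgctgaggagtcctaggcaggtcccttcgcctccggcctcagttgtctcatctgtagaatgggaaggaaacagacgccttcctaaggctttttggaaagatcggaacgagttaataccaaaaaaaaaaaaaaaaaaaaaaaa
Acly: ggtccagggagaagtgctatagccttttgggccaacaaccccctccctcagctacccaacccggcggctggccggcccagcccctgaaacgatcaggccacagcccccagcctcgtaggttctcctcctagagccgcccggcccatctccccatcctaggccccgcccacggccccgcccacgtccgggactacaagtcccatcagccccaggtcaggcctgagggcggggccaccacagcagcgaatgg
Fasn: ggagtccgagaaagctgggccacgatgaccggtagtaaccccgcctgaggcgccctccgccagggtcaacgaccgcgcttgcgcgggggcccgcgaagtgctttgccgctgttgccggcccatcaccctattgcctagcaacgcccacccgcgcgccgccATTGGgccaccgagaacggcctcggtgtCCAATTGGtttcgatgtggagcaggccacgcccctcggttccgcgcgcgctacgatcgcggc
RefSeq windows of 300 bases, which add the first 50 transcribed bases, were at hand for 7 of the 10 members, with 9 windows in all, of which 3 (those printed) had their upstream part outside any annotated gene. The CCAAT box (CCAAT, both strands) was in 5 of the 9 windows against 37.4% of all 32851 windows. In Fasn it was found 3 times, with first bases 90, 62 and 59 bases before the start, and the last pair overlap, which gives the run CCAATTGG. In Acly the only match was 38 bases after the start, outside the printed stretch. A sterol regulatory element written TCACNCCAC was in 0 of 9 windows (1.24% of all windows), an E-box CACGTG in 0 (7.15%), and repeats of AGGTCA with 1 base or 4 bases between the copies and at most 2 mismatches in 0 (3.86% and 3.02%). This says only that these letters are not in these windows. Which of the 3 Srebf1 starts these libraries used was not tested, and the Srebf1 windows not printed lie within the Srebf1 gene.

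Among the enzymes that supply and join carbon units, Acly had 72.9, 84.4 and 82.7 CPM in lox/lox and 76.1, 87.1, 72.4 and 86.9 CPM in I-KO. I-KO replicates 2 and 4 were above and replicate 3 below all lox/lox libraries. Its log2 fold change was 0.01 (standard error 0.10), with an I-KO level of 86.0% to 118% of lox/lox by the 95% interval. Acaca had 22.6, 29.3 and 29.0 CPM in lox/lox and 24.5, 30.6, 22.7 and 31.8 CPM in I-KO. Here too both groups held low and high libraries, and the log2 fold change was 0.02 (standard error 0.14). Fasn had 92.8, 115 and 98.3 CPM in lox/lox and 86.2, 109, 76.3 and 113 CPM in I-KO, with replicates 1 and 3 of I-KO below all lox/lox libraries. Its log2 fold change was -0.10 (standard error 0.15), and the 95% interval was 74.0% to 118% of lox/lox.

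Acacb, whose product regulates fatty acid entry into mitochondria rather than synthesis, had 3.60, 4.63 and 5.70 CPM in lox/lox and 4.07, 4.16, 3.23 and 4.51 CPM in I-KO. All 4 I-KO libraries were below the lox/lox mean of 4.64 ± 1.05 CPM (SD, n = 3), but lox/lox replicate 1 was lower than 3 of them. Its log2 fold change of -0.17 had a standard error of 0.14 (adjusted p = 0.954 by limma). The fraction of Acaca to Acacb was 5.89 ± 0.70 in lox/lox and 6.86 ± 0.58 in I-KO (SD), and 3 of the 4 I-KO libraries were above all lox/lox libraries. The difference of mean log2 ratios was 0.19 and did not pass an exact two-sided permutation test (p = 0.143, adjusted p = 0.571 over the 4 ratios compared). With 35 ways to divide the 7 libraries, the smallest p that this test can give is 0.0286.

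Scd2 had the largest difference of the 10 between genotypes. Its values were 139, 157 and 141 CPM in lox/lox and 98.3, 141, 117 and 101 CPM in I-KO. The lox/lox libraries lay close together, 3 of the 4 I-KO libraries were below them, and I-KO replicate 2 fell between lox/lox replicates 1 and 3. The means were 146 ± 10.2 and 114 ± 19.6 CPM (SD), a log2 fold change of -0.36 (standard error 0.13), and the I-KO level was 63.5% to 95.8% of lox/lox by the 95% interval. This did not pass correction by limma (unadjusted p = 0.0229, adjusted p = 0.954), and the exact permutation test gave p = 0.0857. Leaving out 1 library at a time, its unadjusted p by limma increased to 0.0848 when lox/lox replicate 2 was dropped, and to 0.0559 and 0.0533 when I-KO replicates 1 and 4 were dropped. It fell to 0.00245 when I-KO replicate 2 was dropped. It was 0.163, with a log2 fold change of -0.24, without both libraries with the highest acinar sums, I-KO replicate 1 and lox/lox replicate 2.

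Scd1, the main desaturase of liver and fat, varied most between mice of the same genotype. It had 16.9, 53.6 and 42.9 CPM in lox/lox and 41.9, 21.5, 22.9 and 56.4 CPM in I-KO. Each group held low and high libraries, with a range of 3.17 times within lox/lox and 2.63 times within I-KO. Its residual SD of 0.74 on the log2 scale was above that of 99.6% of the tested genes, whereas that of Fads1 was above 17.1%. The log2 fold change of -0.05 had a standard error of 0.43, so that I-KO levels from 49.3% to 190% of lox/lox lay within the 95% interval. A difference of that size was not detectable in Scd1 with these mice. The fraction of Scd1 to Scd2 was 0.122, 0.340 and 0.304 in lox/lox and 0.426, 0.152, 0.196 and 0.557 in I-KO, and the difference did not pass the exact permutation test (p = 0.629).

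The 3 libraries with the highest Scd1, lox/lox replicates 2 and 3 and I-KO replicate 4, were also the highest for 3 of 8 listed adipocyte markers, Adipoq, Cfd and Lpl, which holds for 4.17% of all tested genes. Adipoq, an adipocyte hormone, was at 0.25, 2.10 and 1.18 CPM in lox/lox and 0.62, 0.79, 0.21 and 1.57 CPM in I-KO. Cfd, the adipocyte protease adipsin, was at 1.14, 7.68 and 5.15 CPM and 2.97, 4.05, 1.06 and 6.49 CPM. The adipocyte list summed to 158 to 165 CPM in lox/lox and 147 to 181 CPM in I-KO, mostly from Cidec (94.9 to 139 CPM), which did not follow this order. The same 3 libraries were the highest for 4 of 7 enteroendocrine markers, Chga, Chgb, Gcg and Neurod1. The part of these cells in the Scd1 values was not tested. In bulk tissue, fewer cells of a type and less RNA per cell cannot be told apart.

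Elovl6 had 203, 201 and 177 CPM in lox/lox and 156, 223, 166 and 190 CPM in I-KO. I-KO replicates 1 and 3 were the lowest libraries of all and replicate 2 the highest, and the log2 fold change was -0.08 (standard error 0.13). Fads1 was the steadiest member, with 58.5, 60.7 and 55.2 CPM in lox/lox and 54.6, 62.2, 54.6 and 53.7 CPM in I-KO. I-KO replicates 1, 3 and 4 were just below all lox/lox libraries, and the I-KO level was 84.5% to 111% of lox/lox by the 95% interval (log2 fold change -0.05, standard error 0.09). Fads2 had 31.0, 32.2 and 31.7 CPM in lox/lox and 26.9, 36.1, 24.9 and 40.7 CPM in I-KO. All I-KO libraries of Fads2 were outside the narrow range of lox/lox, 2 below and 2 above, and the means of 31.6 ± 0.61 and 32.1 ± 7.51 CPM (SD) were close. Whether this spread differs between genotypes was not tested. The fraction of Fads1 to Fads2 was 1.84 ± 0.08 in lox/lox and 1.82 ± 0.38 in I-KO (SD; exact permutation p = 0.857).

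**Figure D3:**
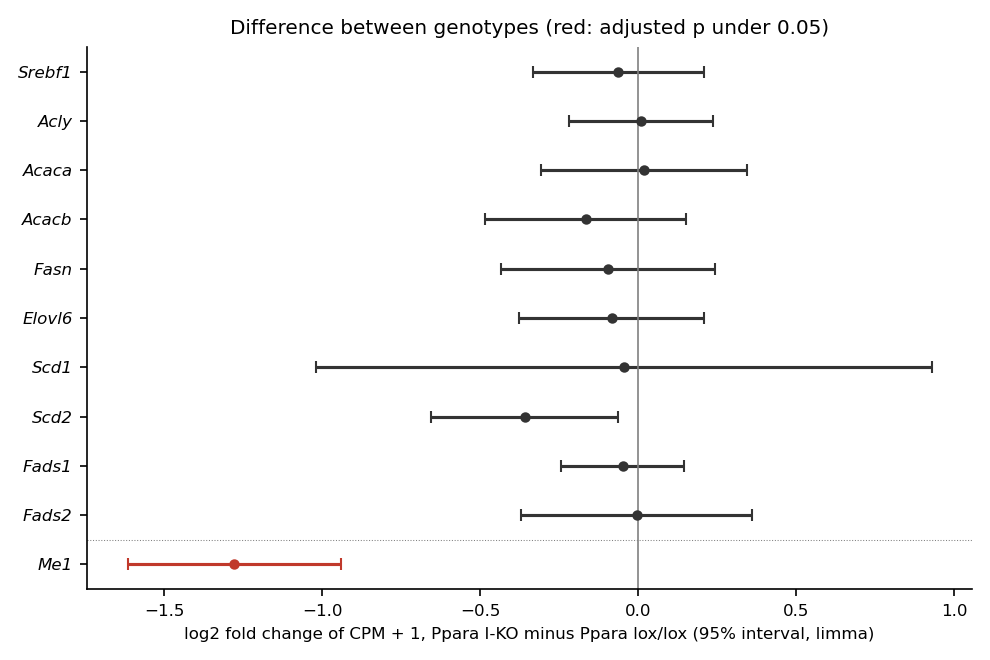
Log2 fold change of CPM + 1 (I-KO minus lox/lox) of the 10 members and of Me1, with 95% intervals from limma. The intervals of 9 members include 0, that of Scd2 (-0.66 to -0.06) does not before correction, and Scd1 has the widest (-1.02 to 0.93). Me1, in red, passed the adjusted threshold at -1.28.

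Several of these enzymes had a common order of the libraries that cut across the genotypes. For Acly, Acaca, Acacb, Fasn and Fads2 the 3 lowest libraries were the same, lox/lox replicate 1 and I-KO replicates 1 and 3. These 3 were the lowest for 5 of 10 members against 5.99% of all tested genes. I-KO replicate 3 was below a gene's own mean over all libraries in 10 of 10 members, I-KO replicate 1 in 9 and lox/lox replicate 1 in 7. In I-KO replicates 2 and 4 this was so in 3 and 2 members. This set of libraries was chosen after the values were seen.

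Summed markers of some other parts of the epithelium also set these 3 libraries apart, though not every gene of a list followed its sum. The summed CPM of 8 stem and progenitor markers was 413 to 564 in those 3 libraries and 576 to 753 in the other 4, and 4 of the 8 (Olfm4, Mki67, Ccnb1 and Pcna) had these 3 lowest. The sum of 5 Paneth cell markers was 1070 to 1630 against 1653 to 2819 CPM. Of these 5, 2 (Lyz1 and Ang4) had the 3 libraries lowest. The sum of 10 enterocyte markers ran the other way, with 67780 to 73470 against 56140 to 63370 CPM. Of these 10, however, only 1 (Apoa1) had the 3 libraries highest. The sum of 6 goblet cell markers was also highest there, with 9949 to 11390 against 8644 to 9262 CPM, and 4 of the 6 followed. The adipocyte sum, mostly Cidec, was highest in these 3 libraries, with 165 to 181 against 147 to 161 CPM, whereas 3 of its 8 genes, all at low levels (Adipoq, Cfd and Retn), had these 3 lowest and 1 had them highest. The sum of 4 ileal markers was highest there too, with 315 to 357 against 272 to 282 CPM, and 1 of the 4 followed. The same libraries also had the fewest reads on listed genes, 20744162 to 21490072 against 23132073 to 25866656. Their column sums were the highest, 1028916 to 1098618 against 969589 to 1016832. The part of crypt cells, fat, gut region, depth or scaling in the order of the lipogenic genes was not tested.

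**Figure D4:**
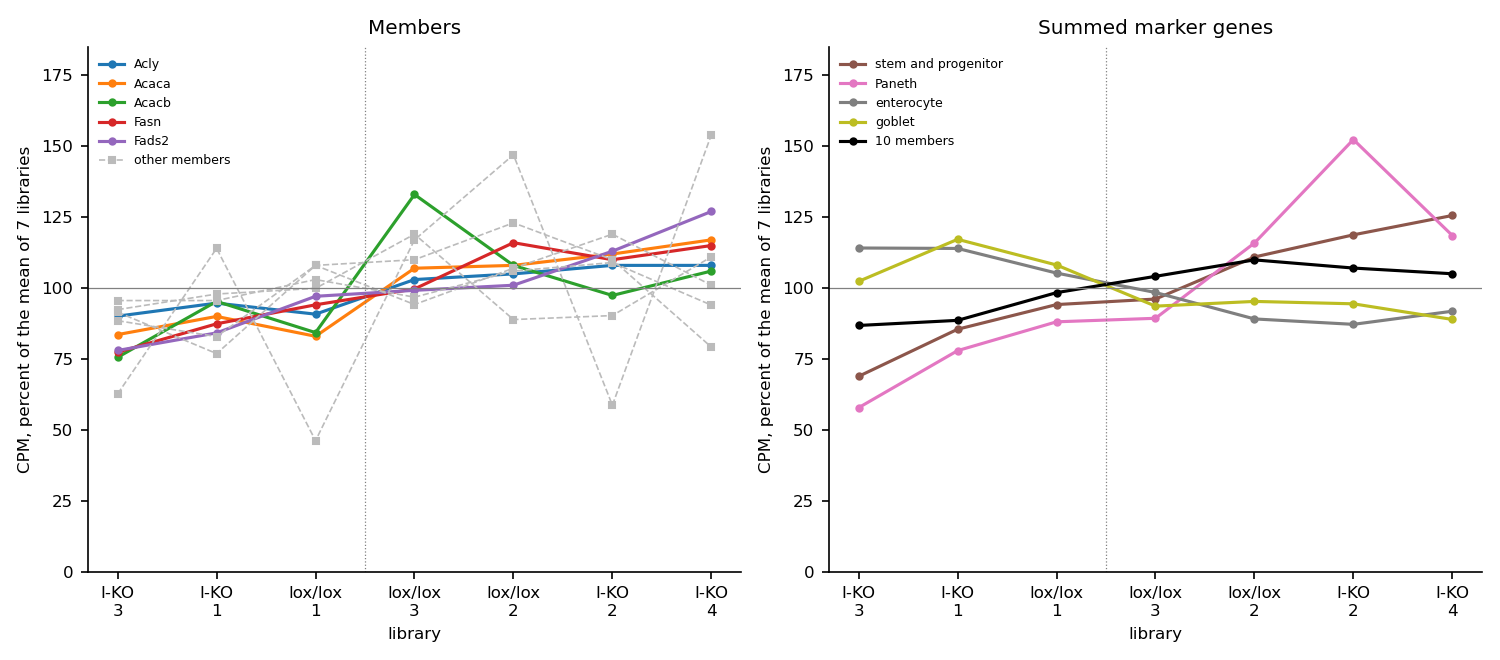
CPM of each member (left) and of summed markers (right) as percent of the mean of 7 libraries, with the libraries in the same order in both panels and the 3 with the lowest Fasn to the left of the dotted line. Acly, Acaca, Acacb, Fasn and Fads2, the stem and progenitor sum and the Paneth sum are lowest left of the line, and the enterocyte and goblet sums are highest there.

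The genes most like Fasn over the 7 libraries, of 13398 compared, were Coa6 (Pearson r = 0.991), a cytochrome c oxidase assembly factor, and Mki67 (0.982) and Cenpf (0.981), both expressed in dividing cells. Mki67 had 129, 158 and 140 CPM in lox/lox and 121, 165, 102 and 158 CPM in I-KO. With so few libraries such values are common, and 250 genes had an r above 0.9 with Fasn, 49 with Scd1 and 37 with Srebf1. Those most like Srebf1 were Lman1 (0.985), Gtf3c1 (0.983) and Dennd4a (0.966), and those most like Scd1 were Bcam, Sf1 and Ogfrl1 (0.982, 0.982 and 0.974). These correlations are descriptions over libraries that differed in depth and in summed cell markers, and the part of either was not tested.

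Srebf1 ordered the libraries in another way. Its lowest library was lox/lox replicate 2, which was the highest for Fasn and Scd2, and its highest was lox/lox replicate 3. Over the 7 libraries none of 9 correlations of Srebf1 with the other members passed, by Pearson or by Spearman, before or after adjustment over the 9. Acacb alone had an unadjusted Pearson p under 0.05 under an alternative, with r = 0.777 when each column was scaled to the same total (exact permutation p = 0.0393, adjusted p = 0.354) and 0.811 without lox/lox replicate 2 (exact permutation p = 0.0444, adjusted p = 0.400), and with r = 0.146 without lox/lox replicate 3. Pearson r was highest with Acacb (0.607, exact permutation p = 0.146, Spearman rho = 0.214 with p = 0.662) and lowest with Fads1 (-0.613, exact permutation p = 0.148, rho = -0.571 with p = 0.200), and adjusted p-values were 0.664 to 0.842. With Fasn it was 0.0916 (exact permutation p = 0.842, rho = -0.179 with p = 0.713). Without the 2 libraries farthest from the median of Srebf1, lox/lox replicate 3 and I-KO replicate 4, all 9 were below 0 (-0.356 to -0.756). These are levels of total Srebf1 mRNA, and the processed protein was not measured. The fraction of Srebf1 to Srebf2, which encodes the factor of cholesterol synthesis, was 0.761 ± 0.19 in lox/lox and 0.687 ± 0.11 in I-KO (SD; exact permutation p = 0.571).

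The 8 lists of other genes, which include the PPARα targets described below, gave 1 call among 99 tested genes. Of all tested genes 0.0299% were called. Of 6 genes of SREBP processing (such as Scap, Insig1 and Srebf2), 11 other lipogenic regulators (such as Mlxipl, which encodes ChREBP, and Nr1h3, which encodes LXRα), 7 genes of acetyl-CoA and citrate supply and 7 of AMPK, none passed by limma and none had an unadjusted p under 0.05. The medians of these 4 lists were between -0.01 and 0.04. Of 12 tested elongases, desaturases and their partners, 0 passed and the median was -0.11. At an unadjusted p under 0.05 were Elovl5, the elongase of polyunsaturated fatty acids, with -0.35 and overlapping groups, and Cyb5r3, which reduces the cytochrome b5 that serves the desaturases, with 0.23. Cyb5r3 had 500, 497 and 457 CPM in lox/lox and 549, 540, 606 and 575 CPM in I-KO, without overlap (adjusted p = 0.954 by limma). Of 20 genes of cholesterol synthesis and uptake, targets of SREBP2, 0 passed by limma and the median was -0.01.

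Me1 was the 1 list gene that passed the adjusted threshold, and it was lower in I-KO. Malic enzyme 1 makes NADPH, the reducing power that Fasn uses. It had 39.3, 29.7 and 42.6 CPM in lox/lox and 13.3, 14.7, 12.8 and 18.0 CPM in I-KO, without overlap. The other 6 genes of NADPH supply did not pass, and G6pdx, the first enzyme of the pentose phosphate pathway, had 68.0 ± 2.48 and 69.4 ± 6.53 CPM (SD). The adjusted p of Me1 was 0.0456 by limma and between 0.0111 and 0.243 over 15 alternatives, under 0.05 in 6 of them. With 1 lox/lox library left out it was 0.226 (replicate 1) and 0.243 (replicate 3), and with 1 I-KO library left out 0.218, 0.145 and 0.132 (replicates 1, 2 and 3).

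Known PPARα targets were measured beside the members. Of 29 tested, 25 had a fitted value below 0 (49.4% of all genes), 17 had an unadjusted p under 0.05, all lower in I-KO (4.74% of all genes in either direction), and in 15 the I-KO libraries were all below lox/lox (6.19% without overlap in either direction), with a median log2 fold change of -0.42. None of these 29, a list that did not include Me1, passed after adjustment by limma. The 4 with the smallest unadjusted p were Pex11a (-0.66), a peroxisome factor, Cyp4a10 (-1.55), a fatty acid hydroxylase, Slc25a20 (-0.83), the carnitine carrier, and Cpt1a (-0.72), the entry step of mitochondrial oxidation. Cpt1a had 96.4, 104 and 122 CPM in lox/lox and 57.7, 63.1, 64.0 and 72.8 CPM in I-KO. Earlier results of these data were known when this list was set, and whether it differs from the members was not tested.

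**Figure D5:**
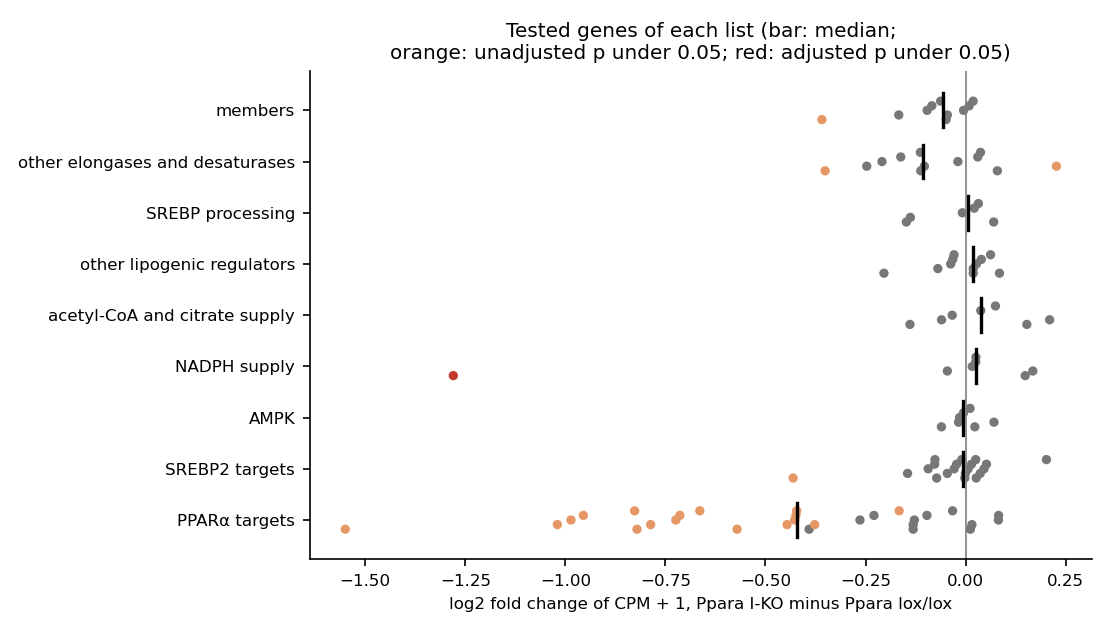
Log2 fold change of CPM + 1 (I-KO minus lox/lox) of each tested gene of the members and of 8 lists, with a bar at the median of each list and colours for unadjusted and adjusted p from limma. The members centre at -0.06 and the PPARα targets at -0.42, and Me1 at -1.28 in the NADPH list is the 1 gene past the adjusted threshold.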

How the data were processed

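Duodenal RNA of 3 Ppara lox/lox and 4 Ppara I-KO mice was sequenced with 100 base single reads after TRIzol extraction and a stranded mRNA protocol. The file deposited by the authors holds signal values: read counts per gene scaled to CPM of an adjusted library size, with 2 decimals. The authors' processing notes name FastQC 0.11.2, TopHat2 2.0.13, Picard 1.80, HTSeq 0.6.1 and edgeR, with mm10. The study's negative binomial test was not repeated, because the values are normalised and rounded. In 5 libraries too few low values (78.9% at the lowest) lay close to whole reads. When rounding was allowed for, 95.3% or more did in every library. The read numbers given here are therefore estimates.

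A linear model on genotype was fitted to log2(CPM + 1) by limma (3.58.1, R 4.3.3) for the 13399 genes that exceeded 1 CPM in 3 or more libraries, two-sided, with Benjamini-Hochberg adjustment over all of them and a threshold of 0.05. Ratios and correlations were compared by exact permutation. Alternatives were other scalings, a pseudocount of 0.5, no filter, a replicate block, other variance models and each library left out. Exon lengths and positions came from GENCODE M21 (GRCm38, the same assembly as mm10), with older symbols of the table matched where listed, and promoters from RefSeq tables.

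The members, lists and tests were chosen with earlier results of these data known. Named genes were all members, Ppara, 4 markers, list genes past the threshold, up to 4 a list with the smallest unadjusted p under 0.05 without overlap, and the 3 genes most correlated with Srebf1, Fasn and Scd1. Elovl5, G6pdx and the further markers were named after their values were seen. The labels call the replicates biological, and no pair of replicates agreed within counting error (the smallest chi-square over its degrees of freedom was 13.5). A row without a gene name holds no values. Depth limits Acacb most, with 61 to 145 reads, and the spread between mice sets the precision of the others.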

Additional observations from a re-analysis of the deposited data

Results flagged for a closer look

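Of 21 quantities searched in the 4 I-KO libraries, 2 had 1 library far from the other 3, against about 1 in 20 by chance. Fads1 in I-KO replicate 2 was at 62.2 CPM and the other 3 at 53.7 to 54.6 CPM, and the gap was 0.895 of the group's range. The pancreatic acinar sum in I-KO replicate 1 was 437 CPM against 27.2 to 42.9 in the other 3, with a gap of 0.962 of the range. Without I-KO replicate 1 no member passed the threshold.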

How the results depend on the processing

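No member was called under any of the 15 alternatives. Over the 8 lists, PPARα targets included, the number of genes called was 1 in the reported fit. It was 0 with column totals, a pseudocount of 0.5, the replicate block or both libraries with the highest acinar sums left out. It was 4 with an intensity trend and robust fit (Cpt1a, Me1, Pex11a and Slc25a20). With sample quality weights it was 6, and without each library 0 to 1. The cause was not tested. The sign of small fold changes turned for Acly (-0.028 with column totals, -0.028 with the replicate block), Acaca (-0.017 and -0.055) and Fads2 (0.041 with quality weights). Column totals moved the median log2 fold change of all genes to -0.0325, farther than the values of Acly and Acaca with column totals. Without both acinar-high libraries the sign turned for Fasn (0.036), Scd1 (0.162), Elovl6 (0.017) and Fads2 (0.082), and 4 members had fitted values below 0.

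With each library left out, log2 fold changes ranged from -0.056 to 0.058 for Acly, -0.099 to 0.101 for Acaca, -0.53 to 0.275 for Scd1, -0.125 to 0.104 for Fads2, -0.16 to 0.05 for Srebf1 and -0.18 to 0.0074 for Fasn, from -0.181 to -0.0099 for Elovl6, and from -0.306 (without lox/lox replicate 1, unadjusted p = 0.0516 by limma) to -0.034 (without lox/lox replicate 3) for Acacb, and 5 to 10 members were below 0. The difference of mean log2 ratios ranged from -0.136 to 0.617 for Scd1 to Scd2, -0.302 to 0.0444 for Srebf1 to Srebf2 and -0.139 to 0.0973 for Fads1 to Fads2. The r of Srebf1 ranged from -0.0418 to 0.411 with Acly and -0.179 to 0.378 with Fasn, and with column totals it was 0.0358 with Scd2, 0.134 with Elovl6, 0.0775 with Fads1, 0.777 with Acacb, 0.54 with Acly and 0.439 with Fasn. Scd2, Acacb and Fads1 were lower under all 15.

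Same-numbered libraries of the 2 genotypes deviated together only weakly (r = -0.0141, 0.184 and -0.00923). The highest values were between lox/lox replicate 3 and I-KO replicate 4 (0.283) and between lox/lox replicate 1 and I-KO replicate 2 (0.203). With so few libraries, these values cannot tell whether same-numbered libraries were paired. With the replicate number as a block, limma called 3 genes in all against 4. At an unadjusted p under 0.05 by limma there were 1016 genes with the block against 635. Replicate number 4 occurs only in I-KO, so the block takes up that library entirely. Member fold changes with the block were thus those found without I-KO replicate 4. Without that library limma called 5 genes, and 913 had an unadjusted p under 0.05 by limma. The fold change of Scd2 with the block was -0.306 on the log2 scale (adjusted p = 0.628 by limma).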

Other observations

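Pparg, which encodes PPARγ and was on the adipocyte list, had 16.6, 15.9 and 11.9 CPM in lox/lox and 19.7, 18.1, 18.1 and 20.4 CPM in I-KO, without overlap. Its log2 fold change of 0.36 did not pass correction by limma (adjusted p = 0.954). Thrsp, a lipogenic regulator also called Spot 14, was at 1.23, 4.85 and 2.87 CPM in lox/lox and 2.78, 2.32, 2.07 and 3.47 CPM in I-KO, with its 3 highest libraries the same as for Scd1. Both genes were picked after their values were seen.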
